A study of Mus musculus with 12 samples.

Results

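Cadherins and protocadherins are the calcium-dependent adhesion proteins of the cell surface, and their transcripts were followed here in mouse neural stem cells (NSCs) that were either proliferating or held in one of 2 quiescent states. Every gene of the deposited count table whose symbol begins with Cdh and a number, or with Pcdh, was taken, which gave 88 of 17365 genes. Of these, 31 lie alone in the genome and 57 belong to the 3 protocadherin gene clusters (14 alpha, 21 beta and 22 gamma genes). Transcript levels of 67 of the 88 were high enough to be tested, among 13312 genes tested in all.

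The 12 RNA sequencing libraries came from 2 NSC lines made from the subventricular zone of mice aged 6 to 8 weeks, ANS4 (strain MF1) and BL6 (strain C57BL/6), with 2 replicates of each line in each of 3 conditions. EGF/FGF cells proliferated in EGF and FGF2 (10 ng/ml each), BMP cells received BMP4 (10 ng/ml) alone, and BMP/FGF cells received BMP4 with FGF2 (10 ng/ml each), the BMP treatments lasting 3 days in serum-free medium with N2, B27 and laminin. The study treats BMP cells as deeply quiescent and BMP/FGF cells as primed to re-enter the cycle. Where each replicate culture came from is not given in the sources used here, so p-values measure the spread among these libraries. Each strain is represented by 1 cultured line, so strain and line cannot be told apart. BMP against EGF/FGF joins the addition of BMP4 to the loss of EGF and FGF2, which cannot be told apart either, whereas BMP/FGF differs from BMP by FGF2 alone.

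Classical cadherins bind the same cadherin on a neighbouring cell and hold on to the actin cytoskeleton through catenins, and N-cadherin (Cdh2) anchors NSCs to each other and to their niche. Type II cadherins are expressed in different combinations by different cell groups of the nervous system. Non-clustered protocadherins of the delta family tune adhesion and migration. Clustered protocadherins give many neurons a surface identity of their own. Most variable exons have their own promoter and are switched on in few of these cells, while the C-type variable exons are used more widely. In the alpha and gamma clusters every variable exon is spliced to the same constant exons.

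Library totals ran from 18069052 to 19451818 counts, and the members took 0.293% to 0.388% of them. Levels are given as CPM (counts relative to library size) scaled by edgeR's TMM factors, at which 1 count was worth 0.0516 to 0.0559 CPM. Replicates of a group differed from each other by more than counting noise (chi-square per degree of freedom 2.14 to 12.4, the highest for the BL6 BMP pair). Such a difference cannot tell separate cultures from separate libraries of 1 culture. The paper states 2 biological replicates for its RNA sequencing, and each library was counted as a sample of its own. Markers of neural stem cells and astrocytes were abundant, their 9 genes having a sum of 7391 to 8059 CPM in EGF/FGF, 10967 to 12497 CPM in BMP and 14312 to 14804 CPM in BMP/FGF. They did not move together. In EGF/FGF, BMP and BMP/FGF, Nes averaged 569, 126 and 115 CPM and Fabp7 2409, 475 and 1385 CPM. The rest had higher means in both BMP conditions, among them Gfap (121, 980 and 1926 CPM) and Aqp4 (82.3, 1049 and 1362 CPM). The markers of neuroblasts and young neurons (7 of 8 tested) summed to 605 to 626 CPM in EGF/FGF and 954 to 1033 CPM in BMP/FGF. In BMP they summed to 1338 and 1411 CPM in ANS4 and to 1981 and 2085 CPM in BL6. Most of this sum was Map2, which averaged 554, 958 and 808 CPM in EGF/FGF, BMP and BMP/FGF. Dcx, which defines neuroblasts, had a mean of 1.29 CPM in EGF/FGF against 279.5 CPM in BMP and 49.9 CPM in BMP/FGF, while Stmn2, a marker of more mature neurons, never passed 12 counts. Tubb3, Dlx2, Dlx5 and Gad1 had the same order of means as Dcx, whereas Gad2 fell, at 27.7, 21.4 and 9.45 CPM. Ependymal markers, nearly all Foxj1, had a sum of 52.3 to 69.8 CPM in EGF/FGF and of 175 to 210.0 CPM in the 8 libraries with BMP4, and their part in the results was not tested. Epithelial markers stayed at or below 1.61 CPM in sum in all 12 libraries. Fewer cells of a type and less RNA per cell cannot be told apart in such bulk libraries.

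A gene was called when its adjusted p (edgeR quasi-likelihood test with the line as a covariate, Benjamini-Hochberg over all 13312 genes) fell under 0.05. In BMP against EGF/FGF, 45 of the 67 tested members were higher and 11 lower, while over all tested genes 40.8% were called higher and 38.8% lower. With an absolute log2 fold change above 1.5 as a further demand, 19 members were higher and 2 lower, against 10.9% and 6.95% of all genes. The 19 include Pcdha4, Pcdha6 and Pcdha10, and the 2 include Pcdhga11, which reached a mean of 10 counts only where they were high. The direction of these members was largely set by the expression filter. In BMP/FGF against EGF/FGF, 44 members were higher and 12 lower (all genes, 40.9% and 38.0%), and 15 and 2 of them passed 1.5 (all genes, 10.6% and 6.08%). These 2 comparisons share the EGF/FGF libraries. When FGF2 was added to BMP, 8 members were higher and 9 lower (all genes, 20.1% and 21.3%), and none passed 1.5 in either direction (all genes, 0.901% and 0.684%), their log2 fold changes by edgeR running from -1.30 to 0.79, so that none would pass at any p. The median log2 fold change of the tested members was 0.85, 0.71 and -0.08 in the 3 comparisons in this order, and that of all tested genes was 0.02, 0.02 and -0.00. The higher calls lay mostly among the clustered genes, of which 37 of 47 tested were higher and 3 lower in BMP against EGF/FGF. The 20 tested non-clustered genes were split evenly, with 8 higher, 8 lower and 4 not called.

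Counting each protocadherin cluster as 1 summed gene left 10 members higher in BMP against EGF/FGF, and 10 in BMP/FGF against EGF/FGF. The tested units were then 20 non-clustered genes and 3 sums, and 40.8% and 40.9% of all genes were higher in these comparisons. A member that is nearly absent in 1 condition can only be tested through the others: 59 of the 67 reached a mean of 10 counts in each of the 3 conditions, Pcdha10 and Pcdhgb8 fell short of it in EGF/FGF alone, Pcdha4 and Pcdha6 reached it in BMP alone, and Pcdhga11 in EGF/FGF alone.

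The 5 delta-2 protocadherins carry a short cytoplasmic motif that recruits the WAVE actin regulators and are known for guiding cell movement and axon growth. In BMP against EGF/FGF, 3 of them were higher (Pcdh8, Pcdh10, Pcdh19), 1 was lower (Pcdh18), and Pcdh17 was not called. The promoters of the 4 called genes are shown because these genes moved in opposite directions. For each, the 250 bases before the annotated start are given 5′ to 3′ on the gene's own strand (RefSeq, GRCm38.p6), with capitals marking every match, on either strand, to CCAAT (the CCAAT box), to CAGGTG (an E-box) or to GGCGCC (a GC-rich element).
Pcdh10 (chr3:45378148-45378397, plus strand): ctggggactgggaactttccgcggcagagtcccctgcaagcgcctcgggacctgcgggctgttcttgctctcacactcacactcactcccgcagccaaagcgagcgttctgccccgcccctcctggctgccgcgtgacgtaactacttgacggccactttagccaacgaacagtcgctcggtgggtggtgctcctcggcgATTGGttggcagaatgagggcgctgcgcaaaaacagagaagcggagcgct
Pcdh8 (chr14:79771313-79771562, minus strand): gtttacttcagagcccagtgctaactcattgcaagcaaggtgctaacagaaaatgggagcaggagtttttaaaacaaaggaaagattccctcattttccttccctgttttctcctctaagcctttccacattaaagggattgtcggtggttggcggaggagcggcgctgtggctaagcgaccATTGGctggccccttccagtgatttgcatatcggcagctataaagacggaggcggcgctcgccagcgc
Pcdh19 (chrX:133688994-133689243, minus strand): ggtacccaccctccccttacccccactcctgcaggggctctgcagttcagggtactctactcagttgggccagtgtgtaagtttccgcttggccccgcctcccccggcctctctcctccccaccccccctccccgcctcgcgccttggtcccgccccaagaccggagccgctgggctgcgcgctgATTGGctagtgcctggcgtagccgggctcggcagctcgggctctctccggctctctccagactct
Pcdh18 (chr3:49757317-49757566, minus strand): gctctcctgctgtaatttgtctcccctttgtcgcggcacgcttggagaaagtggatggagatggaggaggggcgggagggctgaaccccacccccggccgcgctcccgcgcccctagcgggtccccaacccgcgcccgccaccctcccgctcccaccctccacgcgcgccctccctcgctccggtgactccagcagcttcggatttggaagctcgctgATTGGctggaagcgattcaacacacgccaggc

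CCAAT, or ATTGG on the other strand, stood once in each of these 4 windows, the 3 of genes that were higher and the 1 of the gene that was lower, and 33.8% of 32851 such windows held it. CAGGTG and GGCGCC had no match in them, and were held by 17.2% and 9.59% of all windows. The window of Pcdh17, which was not called and is not printed, held CCAAT 2 times and GGCGCC 1 time. The G and C share was 51.2% for Pcdh8, 63.2% for Pcdh10, 68.0% for Pcdh18 and 69.2% for Pcdh19.

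All values are given for ANS4 replicates 1 and 2 and then BL6 replicates 1 and 2. Pcdh10 (ENSMUSG00000049100, chr3:45378398-45435623, plus strand), which supports axon outgrowth in the forebrain, was measured at 37.6, 37.1, 29.0 and 30.5 CPM in EGF/FGF, 96.0, 95.3, 94.9 and 88.5 CPM in BMP, and 86.4, 90.7, 99.3 and 97.8 CPM in BMP/FGF. All 8 libraries with BMP4 lay above all 4 EGF/FGF libraries, and BMP and BMP/FGF overlapped. It was 2.79-fold higher in BMP (log2 fold change 1.48, SE 0.08, edgeR adjusted p = 9.57e-12), 2.79-fold higher in BMP/FGF (log2 fold change 1.48, SE 0.08, edgeR adjusted p = 1.04e-11), and not called between them (log2 fold change -0.00, SE 0.08, edgeR adjusted p = 0.997). Pcdh8 (ENSMUSG00000036422, chr14:79766775-79771312, minus strand), a protocadherin induced by neuronal activity, was low throughout, at 0.724, 0.827, 0.312 and 0.465 CPM in EGF/FGF, 3.26, 3.60, 4.15 and 4.69 CPM in BMP, and 1.40, 1.89, 1.84 and 1.23 CPM in BMP/FGF. The 3 conditions did not overlap, with BMP the highest and EGF/FGF the lowest. Its level was 6.68-fold higher in BMP than in EGF/FGF (log2 fold change 2.74, SE 0.25, edgeR adjusted p = 1.52e-08) and 2.46-fold lower in BMP/FGF than in BMP (log2 fold change -1.30, SE 0.22, edgeR adjusted p = 1.25e-04). BMP/FGF stayed above EGF/FGF (log2 fold change 1.44, SE 0.29, edgeR adjusted p = 1.86e-04). Pcdh19 (ENSMUSG00000051323, chrX:133582860-133688987, minus strand), whose loss in humans causes an X-linked epilepsy, was measured at 1.86, 2.27, 2.24 and 3.00 CPM in EGF/FGF, 6.68, 6.97, 9.22 and 9.38 CPM in BMP, and 4.15, 4.09, 4.97 and 4.19 CPM in BMP/FGF. It followed the same order without overlap. The rise in BMP was 3.43-fold (log2 fold change 1.78, SE 0.13, edgeR adjusted p = 1.00e-09), and with FGF2 the level was 1.84-fold lower than in BMP (log2 fold change -0.88, SE 0.12, edgeR adjusted p = 2.75e-05). It was still above EGF/FGF (log2 fold change 0.90, SE 0.14, edgeR adjusted p = 1.84e-05).

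Pcdh18 (ENSMUSG00000037892, chr3:49743296-49757325, minus strand) went the other way, at 7.86, 8.06, 9.00 and 8.93 CPM in EGF/FGF, 1.27, 1.22, 1.09 and 0.521 CPM in BMP, and 0.646, 1.35, 1.12 and 1.06 CPM in BMP/FGF. The EGF/FGF libraries stood apart from all 8 others, and the fall was 8.26-fold in BMP (log2 fold change -3.05, SE 0.20, edgeR adjusted p = 1.81e-10) and 8.07-fold in BMP/FGF (log2 fold change -3.01, SE 0.20, edgeR adjusted p = 2.27e-10). BMP and BMP/FGF overlapped (edgeR adjusted p = 0.937). Pcdh17, expressed along corticobasal ganglia circuits, averaged 0.971, 0.982 and 0.615 CPM in EGF/FGF, BMP and BMP/FGF and was called in none of the 3 comparisons.

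**Figure D1:**
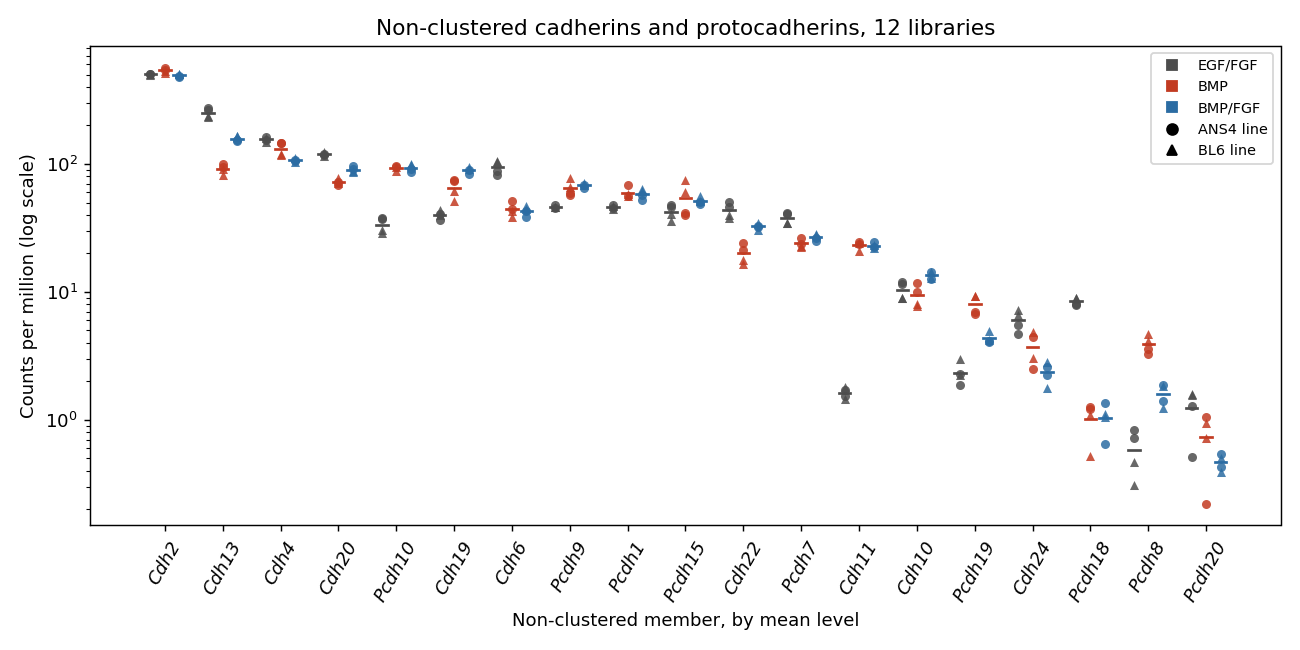
Levels of the 19 non-clustered members above 1 CPM in a condition, in CPM on a log axis. Points are libraries (circles ANS4, triangles BL6), coloured by condition, and bars are means of 4 libraries. Cdh11 lies between 1.46 and 1.81 CPM in EGF/FGF and between 21.0 and 24.5 CPM in the 8 other libraries, and Pcdh18 does the reverse.

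Type II cadherins form the largest classical group measured, with 7 of the 9 genes in the table tested. Cdh11 and Cdh19 were higher in BMP, Cdh6, Cdh20, Cdh22 and Cdh24 were lower, and Cdh10 was not called. Cdh11 (ENSMUSG00000031673, chr8:102632095-102785642, minus strand), a cadherin of mesenchyme and migrating neural crest, was measured at 1.71, 1.55, 1.46 and 1.81 CPM in EGF/FGF, 23.8, 24.5, 24.0 and 21.0 CPM in BMP, and 22.3, 24.5, 22.1 and 23.1 CPM in BMP/FGF. None of the 8 libraries with BMP4 came near the EGF/FGF libraries, and BMP and BMP/FGF overlapped. The rise was 14.3-fold in BMP (log2 fold change 3.83, SE 0.11, edgeR adjusted p = 1.60e-15) and 14.1-fold in BMP/FGF (log2 fold change 3.81, SE 0.11, edgeR adjusted p = 1.95e-15). The 2 BMP conditions were not told apart (log2 fold change -0.02, SE 0.08, edgeR adjusted p = 0.856). In the rlog values that the authors deposited, which shrink low counts, the rise in BMP was 3.18 on the log2 scale by limma-trend.

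Cdh19 (chr1:110888326-110977584, minus strand), known from Schwann cell precursors, was measured at 40.8, 36.7, 40.1 and 43.6 CPM in EGF/FGF, 73.2, 74.5, 61.1 and 51.4 CPM in BMP, and 82.9, 89.3, 92.2 and 94.1 CPM in BMP/FGF. The 3 conditions did not overlap, and the level grew from EGF/FGF to BMP (1.61-fold, log2 fold change 0.69, SE 0.10, edgeR adjusted p = 3.96e-06) and from BMP to BMP/FGF (1.38-fold, log2 fold change 0.47, SE 0.09, edgeR adjusted p = 7.90e-04). BMP/FGF was 2.22-fold above EGF/FGF (edgeR adjusted p = 4.37e-09).

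Cdh20 (chr1:104768529-104995481, plus strand), a cadherin of developing forebrain regions, fell and was partly regained with FGF2, at 117, 121, 116 and 123 CPM in EGF/FGF, 68.2, 71.7, 77.9 and 70.6 CPM in BMP, and 95.9, 90.7, 86.9 and 87.6 CPM in BMP/FGF. BMP libraries were the lowest, BMP/FGF intermediate and EGF/FGF the highest, with no overlap. It was 1.66-fold lower in BMP than in EGF/FGF (log2 fold change -0.73, SE 0.06, edgeR adjusted p = 2.64e-09) and 1.25-fold higher in BMP/FGF than in BMP (log2 fold change 0.32, SE 0.06, edgeR adjusted p = 3.35e-04). BMP/FGF stayed below EGF/FGF (log2 fold change -0.40, SE 0.06, edgeR adjusted p = 5.76e-06). Cdh22 (chr2:165111507-165234853, minus strand), also brain-enriched, had the same order at lower levels, 45.9, 50.1, 38.0 and 40.0 CPM in EGF/FGF, 21.2, 24.3, 16.7 and 17.9 CPM in BMP, and 32.5, 32.3, 30.5 and 34.7 CPM in BMP/FGF. The fall in BMP was 2.17-fold (log2 fold change -1.12, SE 0.09, edgeR adjusted p = 1.66e-09), and BMP/FGF was 1.64-fold above BMP (log2 fold change 0.71, SE 0.09, edgeR adjusted p = 7.84e-06). It was below EGF/FGF (log2 fold change -0.41, SE 0.09, edgeR adjusted p = 2.75e-04).

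Cdh6 (chr15:13028701-13173675, minus strand), which marks boundaries of developing brain and kidney, was measured at 87.7, 81.8, 105 and 104 CPM in EGF/FGF, 51.7, 44.9, 43.2 and 38.7 CPM in BMP, and 38.8, 42.9, 46.8 and 44.1 CPM in BMP/FGF. All EGF/FGF libraries were above all others, and BMP and BMP/FGF overlapped. It was 2.11-fold lower in BMP (log2 fold change -1.08, SE 0.09, edgeR adjusted p = 5.72e-09) and 2.19-fold lower in BMP/FGF (log2 fold change -1.13, SE 0.09, edgeR adjusted p = 3.26e-09), and the BMP conditions were not told apart (edgeR adjusted p = 0.690). Cdh24, at 4.71, 5.48, 6.61 and 7.23 CPM in EGF/FGF, 2.48, 4.48, 3.06 and 4.85 CPM in BMP, and 2.59, 2.26, 1.79 and 2.85 CPM in BMP/FGF, declined in 2 steps of a similar size. BMP overlapped the groups on each side of it, whereas BMP/FGF lay below EGF/FGF without overlap. The log2 fold change was -0.69 in BMP against EGF/FGF (edgeR adjusted p = 0.00307) and -0.64 in BMP/FGF against BMP (edgeR adjusted p = 0.0236). The last call was lost in ANS4 alone (edgeR adjusted p = 0.141) and without ANS4 BMP replicate 2 (0.0986), BL6 BMP replicate 2 (0.0892) or BL6 BMP/FGF replicate 1 (0.0916). BMP/FGF against EGF/FGF gave -1.33 (edgeR adjusted p = 1.02e-05). Cdh10, at 11.5, 11.9, 8.90 and 9.04 CPM in EGF/FGF, 9.99, 11.8, 7.72 and 8.08 CPM in BMP, and 12.5, 14.4, 14.4 and 12.8 CPM in BMP/FGF, overlapped between EGF/FGF and BMP (log2 fold change -0.14, SE 0.11, edgeR adjusted p = 0.262). Its BMP/FGF libraries were above all others (1.45-fold over BMP, log2 fold change 0.54, SE 0.11, edgeR adjusted p = 8.59e-04). They were 1.32-fold over EGF/FGF (log2 fold change 0.40, SE 0.11, edgeR adjusted p = 0.00281). Both calls were lost in ANS4 alone (log2 fold change 0.30 and 0.20, edgeR adjusted p = 0.0628 and 0.135).

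Cdh13 (ENSMUSG00000031841, chr8:118283733-119324921, plus strand), or T-cadherin, has no cytoplasmic tail, is held in the membrane by a lipid anchor and binds adiponectin as well as other cells. Its levels were 275, 265, 233 and 236 CPM in EGF/FGF, 94.7, 99.3, 81.5 and 90.9 CPM in BMP, and 150.1, 153, 164 and 164 CPM in BMP/FGF. The conditions did not overlap, and BMP/FGF lay between the others. The level was 2.75-fold lower in BMP than in EGF/FGF (log2 fold change -1.46, SE 0.07, edgeR adjusted p = 1.53e-12), and 1.73-fold higher in BMP/FGF than in BMP (log2 fold change 0.79, SE 0.07, edgeR adjusted p = 1.23e-07). BMP/FGF remained below EGF/FGF (log2 fold change -0.67, SE 0.07, edgeR adjusted p = 5.46e-08).

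Type I cadherins have the strongest adhesion, and 2 of 5 were tested. Cdh2 (chr18:16588877-16809246, minus strand), N-cadherin, was measured at 501, 503, 507 and 493 CPM in EGF/FGF, 546, 566, 529.6 and 516 CPM in BMP, and 476, 485, 509.8 and 505 CPM in BMP/FGF. The BMP libraries lay above all others, but the distance was small and was not called (log2 fold change 0.11, SE 0.05, edgeR adjusted p = 0.0857 against EGF/FGF, and log2 fold change -0.13, SE 0.05, edgeR adjusted p = 0.0743 for BMP/FGF against BMP). The exact permutation test on these 4 against 4 libraries gave p = 0.0286, two-sided, the smallest it can give. The difference from EGF/FGF was called without BL6 BMP replicate 2 (edgeR adjusted p = 0.0413), in ANS4 alone (0.0185), with library sizes alone as scaling (0.0296) and by DESeq2 (0.0436). Under the same 4 alternatives BMP/FGF against BMP was called too (adjusted p = 0.0428, 0.00535, 0.0106 and 0.0113). BMP/FGF and EGF/FGF overlapped (log2 fold change -0.02, SE 0.05, edgeR adjusted p = 0.738). Cdh4 (chr2:179442431-179899373, plus strand), R-cadherin, which can pair with N-cadherin, was measured at 155, 162, 159.8 and 149 CPM in EGF/FGF, 146, 145, 118 and 119 CPM in BMP, and 106, 107, 104 and 112 CPM in BMP/FGF. The 3 conditions did not overlap, and the level declined from EGF/FGF to BMP (log2 fold change -0.25, SE 0.07, edgeR adjusted p = 0.00200) and again to BMP/FGF (log2 fold change -0.29, SE 0.07, edgeR adjusted p = 0.00188). The last call was lost in BL6 alone (edgeR adjusted p = 0.183). The whole decline, EGF/FGF to BMP/FGF, was 1.46-fold (log2 fold change -0.55, SE 0.07, edgeR adjusted p = 6.20e-07). E-cadherin (Cdh1), P-cadherin (Cdh3) and M-cadherin (Cdh15) were not tested, with at most 8 counts in a library.

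Levels of different genes can be compared only per length. Per kilobase of the longest coding transcript, the highest mean EGF/FGF levels among the non-clustered members were 103 CPM/kb for Cdh2, 66.6 for Cdh13, 29.8 for Cdh20, 24.5 for Cdh4, 11.7 for Cdh22 and 11.6 for Cdh6. In BMP the order of these members changed: Cdh2 (111 CPM/kb) was followed by Cdh13 (24.2), Cdh4 (20.6), Cdh20 (18.0), Cdh19 (16.6) and Pcdh10 (11.4). In BMP/FGF, again among the non-clustered members, Cdh2 (102 CPM/kb) and Cdh13 (41.7) were followed by Cdh19 (22.9), Cdh20 (22.5) and Cdh4 (16.8), and Cdh19 and Cdh20 lay close together.

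The 3 tested delta-1 protocadherins, whose tails bind a phosphatase, were called in each BMP condition against EGF/FGF and not between the BMP conditions. Pcdh1 was measured at 45.1, 47.6, 46.8 and 44.9 CPM in EGF/FGF, 55.7, 67.9, 56.5 and 58.4 CPM in BMP, and 57.6, 52.0, 63.6 and 61.1 CPM in BMP/FGF. It was 1.29-fold higher in BMP (log2 fold change 0.37, SE 0.08, edgeR adjusted p = 2.27e-04) and 1.27-fold higher in BMP/FGF (log2 fold change 0.35, SE 0.08, edgeR adjusted p = 4.74e-04). Pcdh9 was measured at 47.4, 45.6, 46.1 and 46.1 CPM in EGF/FGF, 58.9, 57.3, 77.9 and 66.7 CPM in BMP, and 65.0, 69.1, 71.7 and 68.6 CPM in BMP/FGF, 1.40-fold higher in BMP (log2 fold change 0.49, SE 0.07, edgeR adjusted p = 8.29e-06) and 1.48-fold higher in BMP/FGF (log2 fold change 0.57, SE 0.07, edgeR adjusted p = 1.46e-06). For both, all 8 libraries with BMP4 were above all EGF/FGF libraries. Pcdh7, at 41.5, 40.8, 34.5 and 34.5 CPM in EGF/FGF, 26.6, 23.9, 22.9 and 22.5 CPM in BMP, and 24.8, 26.6, 28.3 and 27.8 CPM in BMP/FGF, was lower without overlap in BMP (1.58-fold, log2 fold change -0.66, SE 0.08, edgeR adjusted p = 5.50e-07) and in BMP/FGF (1.40-fold, edgeR adjusted p = 1.96e-05), and 74.8% of the 31-base words of its transcript were in no other gene. The differences between the BMP conditions were -0.03, 0.08 and 0.17 on the log2 scale for Pcdh1, Pcdh9 and Pcdh7. Pcdh9 was called there in ANS4 alone (0.21, edgeR adjusted p = 0.0236), and Pcdh7 in BL6 alone (0.31, 0.0193) and without ANS4 BMP/FGF replicate 1 (0.22, 0.0472).

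Pcdh15, a hair cell tip-link cadherin that oligodendrocyte precursors also express, was measured at 47.4, 46.0, 35.6 and 40.7 CPM in EGF/FGF, 41.4, 39.9, 74.9 and 60.1 CPM in BMP, and 50.3, 48.3, 56.4 and 51.4 CPM in BMP/FGF. The BL6 BMP libraries were the highest, and the ANS4 BMP libraries were below the ANS4 EGF/FGF libraries. BMP/FGF lay above EGF/FGF without overlap but was not called (log2 fold change 0.27, SE 0.14, edgeR adjusted p = 0.0926). Its call in BMP against EGF/FGF (log2 fold change 0.32, SE 0.14, edgeR adjusted p = 0.0482) was lost under 13 of 22 alternatives, among them leaving out BL6 BMP replicate 1 (log2 fold change 0.16), BL6 EGF/FGF replicate 1 (0.19) or 2 (0.25), BL6 BMP replicate 2 (0.30) or any BMP/FGF library, and turned to a fall in ANS4 alone (-0.20, edgeR adjusted p = 0.0164). Markers of the oligodendrocyte lineage (6 of 8 tested, with Sox10 and Mog at or below 12 counts) summed in EGF/FGF to 1601 and 1686 CPM (ANS4) and to 1618 and 1519 CPM (BL6), and in BMP to 812 and 842 CPM (ANS4) and to 1105 and 1271 CPM (BL6). In BL6 this sum was thus lower in BMP than in EGF/FGF where Pcdh15 was higher, and its part in this result was not tested. Pcdh20, near the limit at 0.517, 1.29, 1.56 and 1.60 CPM in EGF/FGF, 1.05, 0.221, 0.725 and 0.938 CPM in BMP, and 0.431, 0.539, 0.503 and 0.391 CPM in BMP/FGF, was called lower in BMP/FGF against EGF/FGF (log2 fold change -1.38, SE 0.38, edgeR adjusted p = 0.00310), although the lowest EGF/FGF library lay within the BMP/FGF libraries, and it was not called in BMP against EGF/FGF (log2 fold change -0.75, SE 0.35, edgeR adjusted p = 0.0579) or between the BMP conditions (edgeR adjusted p = 0.241). The call in BMP/FGF was lost in ANS4 alone (-0.89, edgeR adjusted p = 0.192), and in the shrunken rlog values the difference was -0.57. BMP against EGF/FGF was called in BL6 alone (edgeR adjusted p = 0.0193) and without ANS4 EGF/FGF replicate 1 (0.0130) or ANS4 BMP replicate 1 (0.00972).

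Among the non-clustered members, BMP/FGF had higher levels of Cdh13, Cdh22, Cdh10, Cdh19 and Cdh20 and lower levels of Cdh4, Cdh24, Pcdh19 and Pcdh8 than BMP. The other 11 tested non-clustered members were not called. These are 5 higher and 4 lower of 20 tested, near the shares over all genes (20.1% higher and 21.3% lower). Among the called, Cdh13, Cdh20 and Cdh22 had fallen in BMP against EGF/FGF, and Pcdh8 and Pcdh19 had risen, so that their BMP/FGF levels lay between the others. Cdh4, Cdh24 and Cdh19 kept their direction from one comparison to the next. The BMP libraries enter both comparisons.

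**Figure D2:**
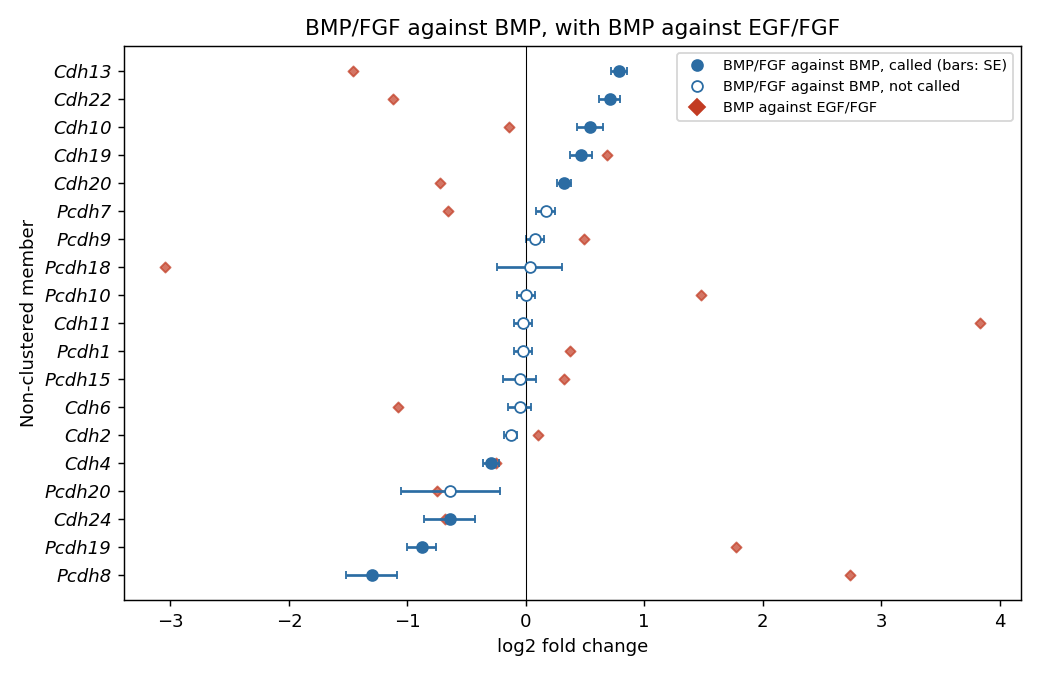
Log2 fold changes of the 19 non-clustered members above 1 CPM in a condition. Blue circles are BMP/FGF against BMP with SE bars, filled when called, and red diamonds are BMP against EGF/FGF. Cdh13 lies at 0.79 with its diamond at -1.46, and Pcdh8 at -1.30 with its diamond at 2.74.

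The clustered genes lie in a row on chromosome 18, all on the plus strand (alpha chr18:36930184-37187661, beta chr18:37264938-37524479, gamma chr18:37661793-37841873, GRCm38). Beta genes are single exons without shared constant exons. Their changes had 1 direction: 19 of the 19 tested were higher in BMP against EGF/FGF (median log2 fold change 1.37, range 0.29 to 3.27), and 18 in BMP/FGF against EGF/FGF. Alternate alpha isoforms were higher in 6 of 7 tested, gamma A isoforms in 7 of 10 and gamma B isoforms in 4 of 6, and only Pcdhga11 of these 42 alternate and beta genes was lower, from 1.09, 1.39, 1.72 and 1.81 CPM in EGF/FGF to 0.552, 0.221, 0.725 and 0 CPM in BMP (log2 fold change -1.98, SE 0.47, edgeR adjusted p = 9.60e-04). The 5 C-type isoforms differed from them, with 1 higher (Pcdhgc3), 2 lower (Pcdhac2 and Pcdhgc5) and 2 not called (Pcdhac1 and Pcdhgc4) in both comparisons with EGF/FGF. Over all genes 40.8% were higher and 38.8% lower in BMP, and 40.9% and 38.0% in BMP/FGF. Pcdha4, Pcdha6, Pcdha10, Pcdhgb8 and Pcdhga11 reached a mean of 10 counts only where they were high, as given above. Their direction was therefore largely set by the filter.

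Kallisto shares reads among transcripts that contain them. Of the 31-base words of a member's longest coding transcript, the median share found in no other annotated gene was 99.9% for non-clustered and 88.4% for beta genes, but 44.5% for gamma A and B, 51.6% for C-type and 33.4% for alternate alpha genes. Pcdha4 (0.488%), Pcdhga10 (0.617%) and Pcdha11 (1.52%) had next to none and are uncertain as single genes.

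The sum of a cluster depends less on that division. Summed over its 14 genes, the alpha cluster was measured at 75.7, 75.7, 61.5 and 63.2 CPM in EGF/FGF, 71.8, 65.8, 66.6 and 67.1 CPM in BMP, and 62.4, 72.7, 74.5 and 74.0 CPM in BMP/FGF. The groups overlapped, and no difference was called (log2 fold change -0.02, SE 0.08, edgeR adjusted p = 0.806 for BMP against EGF/FGF). The beta cluster sum was 147, 143, 128 and 132 CPM in EGF/FGF, 328, 322, 358 and 333 CPM in BMP, and 289, 291, 312 and 300.3 CPM in BMP/FGF. It was 2.44-fold higher in BMP than in EGF/FGF with no overlap (log2 fold change 1.29, SE 0.06, edgeR adjusted p = 1.98e-12), and lower in BMP/FGF than in BMP (log2 fold change -0.17, SE 0.06, edgeR adjusted p = 0.0320). The last call was lost under 6 of 21 alternatives, among them leaving out BL6 BMP replicate 1 (adjusted p = 0.0973), ANS4 BMP/FGF replicate 1 (0.0864) or 2 (0.0818), or BL6 BMP/FGF replicate 2 (0.0652). The gamma cluster sum, 1439, 1616, 1313 and 1291 CPM in EGF/FGF, 1897, 2103, 1777 and 1809 CPM in BMP, and 2166, 1999, 2198 and 2199 CPM in BMP/FGF, was higher in BMP (log2 fold change 0.43, SE 0.07, edgeR adjusted p = 3.69e-05) and in BMP/FGF (log2 fold change 0.60, SE 0.07, edgeR adjusted p = 6.18e-07) than in EGF/FGF, with no overlap. Between the BMP conditions its difference was not called (log2 fold change 0.18, SE 0.07, edgeR adjusted p = 0.0592), and was called without ANS4 EGF/FGF replicate 2 (adjusted p = 0.0492), ANS4 BMP replicate 2 (0.0380) or ANS4 BMP/FGF replicate 2 (0.0190).

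**Figure D3:**
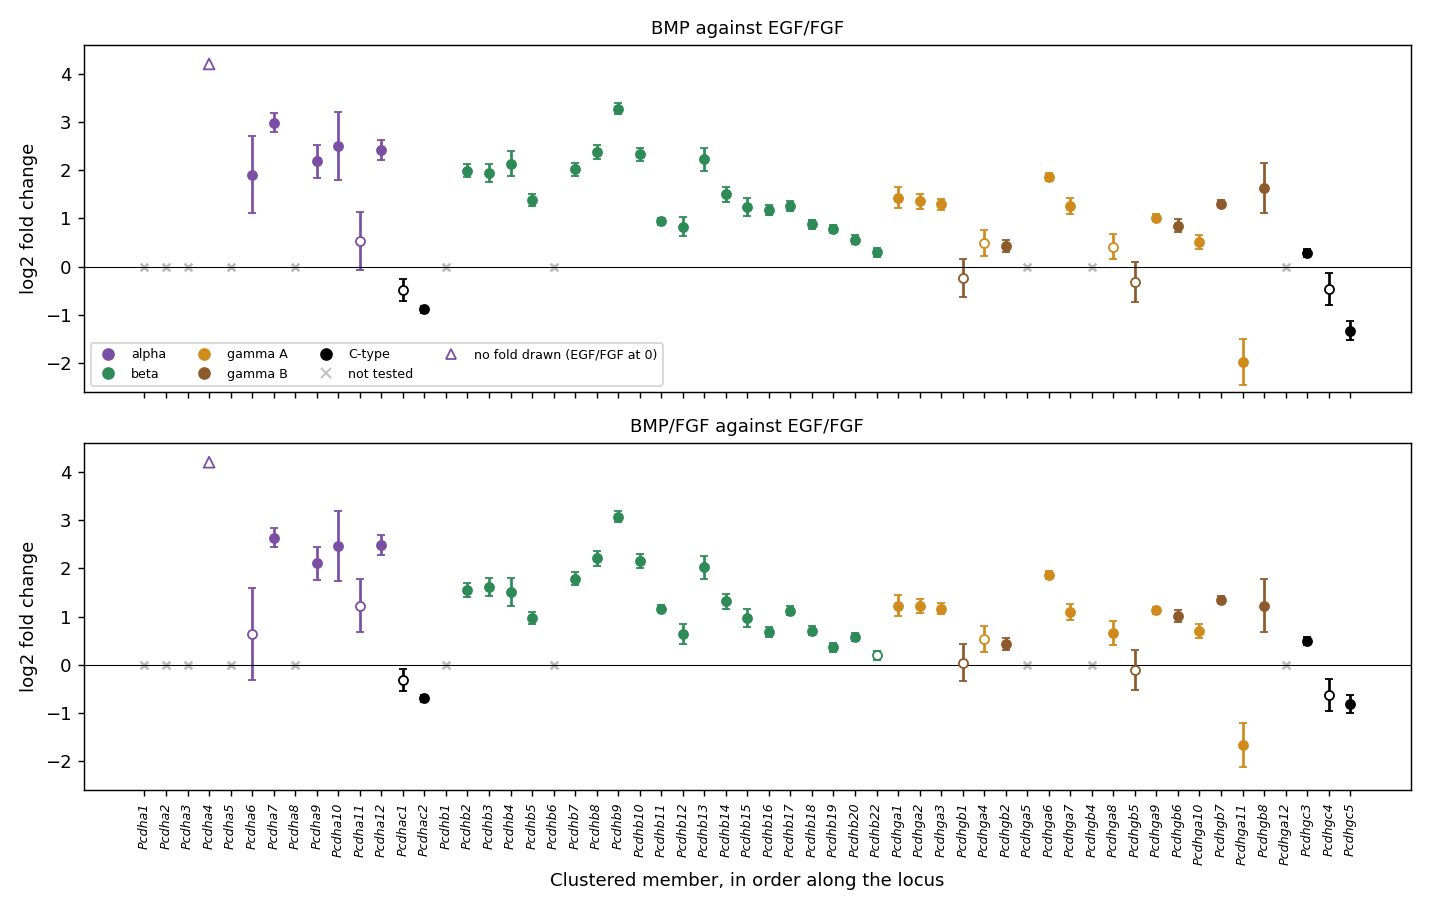
Log2 fold change with SE of the 57 clustered protocadherins in their order along chromosome 18, for BMP and for BMP/FGF against EGF/FGF. Colours give the isoform type, filled circles are called, grey crosses were not tested, and the triangle is Pcdha4, which had no count in EGF/FGF. All 19 tested beta genes lie above 0 in both panels, and Pcdhac2 and Pcdhgc5 lie below.

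Within the alpha cluster the mixture of isoforms changed. Pcdhac2, the C-type isoform that serotonergic neurons need to spread their axons evenly, was measured at 64.9, 67.1, 55.5 and 57.2 CPM in EGF/FGF, 34.5, 34.4, 31.4 and 31.7 CPM in BMP, and 33.2, 40.1, 38.7 and 38.4 CPM in BMP/FGF. It was 1.85-fold lower in BMP, without overlap (log2 fold change -0.89, SE 0.07, edgeR adjusted p = 3.70e-09), and its share of the alpha counts was 88.7% ± 2.17 (SD, n = 4) in EGF/FGF, 48.7% ± 2.44 in BMP and 53.0% ± 1.59 in BMP/FGF. Pcdha7, at 0.724, 0.723, 0.936 and 0.516 CPM in EGF/FGF, 4.58, 4.65, 6.89 and 7.14 CPM in BMP, and 4.26, 4.04, 4.25 and 5.64 CPM in BMP/FGF, was 7.89-fold higher in BMP (log2 fold change 2.98, SE 0.19, edgeR adjusted p = 1.10e-10). Pcdha12, named after its values were seen, carried the most counts of the alternate alpha isoforms, at 6.42, 3.93, 2.29 and 2.53 CPM in EGF/FGF, 25.4, 18.8, 19.4 and 16.8 CPM in BMP, and 18.4, 19.4, 23.8 and 21.9 CPM in BMP/FGF, and rose 5.32-fold (log2 fold change 2.41, SE 0.21, edgeR adjusted p = 6.05e-09). Pcdha4 had 0 counts in the 4 EGF/FGF libraries and 0.442, 0.830, 1.14 and 0.678 CPM in BMP. Taking 3 counts per library as the limit that counting error allows for a count of 0 (0.155 CPM), its BMP mean was 4.97 times that limit. The limit does not cover how kallisto divided shared reads, and 0.488% of the 31-base words of Pcdha4 were in no other gene. The size of its rise is therefore uncertain. BMP/FGF overlapped EGF/FGF, since the BMP/FGF libraries had 0.431, 0.700, 0.503 and 0 CPM.

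Alternate alpha isoforms together took 11.9%, 8.46%, 6.77% and 7.03% of the alpha counts in EGF/FGF, 50.2%, 45.8%, 50.5% and 50.9% in BMP, and 44.8%, 41.7%, 46.3% and 46.5% in BMP/FGF. BMP lay 40.8 percentage points above EGF/FGF, by 37.8 points in ANS4 and 43.8 in BL6, with no overlap (exact permutation test, two-sided, p = 0.0286, adjusted p = 0.0343 over the 12 share tests). BMP/FGF was 36.3 points above EGF/FGF (exact p = 0.0286, adjusted p = 0.0343) and 4.50 points below BMP, with overlap (exact p = 0.0857, adjusted p = 0.0935). The smallest p this design allows is 0.0286.

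Gamma A and B isoforms took 9.91%, 9.05%, 10.4% and 10.2% of the gamma counts in EGF/FGF, 19.8%, 17.9%, 18.9% and 18.6% in BMP, and 15.7%, 17.3%, 17.6% and 17.0% in BMP/FGF. The 3 groups did not overlap: BMP was 8.92 points above EGF/FGF and BMP/FGF 1.91 points below BMP (each exact permutation p = 0.0286, adjusted p = 0.0343). The rest was C-type, nearly all of it Pcdhgc3, which had the highest level per kilobase of all members (270.3 CPM/kb in EGF/FGF) and was measured at 1291, 1461, 1167 and 1149.8 CPM in EGF/FGF, 1516, 1723, 1437 and 1469 CPM in BMP, and 1821, 1648, 1808 and 1819 CPM in BMP/FGF. Pcdhgc3, known for acting on Wnt signalling and on dendrites, was 1.21-fold higher in BMP with overlap (log2 fold change 0.28, SE 0.07, edgeR adjusted p = 0.00238) and 1.41-fold higher in BMP/FGF (log2 fold change 0.49, SE 0.08, edgeR adjusted p = 1.02e-05), and 23.2% of its 31-base words were in no other gene. Its call in BMP/FGF against BMP (log2 fold change 0.21, SE 0.07, edgeR adjusted p = 0.0309) was lost under 11 of 22 alternatives, among them leaving out ANS4 BMP replicate 1, BL6 BMP replicate 1 or 2, ANS4 BMP/FGF replicate 1, or BL6 BMP/FGF replicate 1 or 2 (edgeR adjusted p = 0.0553 to 0.118). Pcdhgc5 was the other C-type isoform called there, and was nearly at the threshold (log2 fold change 0.51, SE 0.20, edgeR adjusted p = 0.0495).

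Pcdhga6 carried the most counts of the alternate isoforms, at 47.4, 49.4, 41.4 and 47.0 CPM in EGF/FGF, 181, 175, 153 and 159 CPM in BMP, and 150.0, 162, 184 and 177 CPM in BMP/FGF. It was 3.60-fold higher in BMP (log2 fold change 1.85, SE 0.08, edgeR adjusted p = 4.97e-13) and 3.64-fold higher in BMP/FGF (log2 fold change 1.86, SE 0.08, edgeR adjusted p = 4.43e-13), with no overlap with EGF/FGF. Pcdhgb7, at 23.3, 25.5, 24.0 and 21.7 CPM in EGF/FGF, 59.3, 61.4, 52.0 and 60.6 CPM in BMP, and 61.7, 58.7, 57.03 and 63.0 CPM in BMP/FGF, and Pcdhga9, at 23.5, 21.4, 22.2 and 22.9 CPM in EGF/FGF, 46.2, 47.1, 47.7 and 40.2 CPM in BMP, and 48.5, 47.6, 51.4 and 49.8 CPM in BMP/FGF, rose 2.47-fold and 2.01-fold in BMP (edgeR adjusted p = 1.02e-11 and edgeR adjusted p = 3.30e-10). For each of the 3, every library with BMP4 was above every EGF/FGF library.

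Among beta genes, Pcdhb9 had the largest rise, being measured at 4.81, 5.68, 3.49 and 3.51 CPM in EGF/FGF, 39.6, 42.2, 43.5 and 43.0 CPM in BMP, and 37.6, 38.9, 37.0 and 33.7 CPM in BMP/FGF. The rise was 9.65-fold in BMP (log2 fold change 3.27, SE 0.11, edgeR adjusted p = 2.00e-14), and its share of the beta counts was 3.16% ± 0.611 (SD, n = 4) in EGF/FGF, 12.6% ± 0.516 in BMP and 12.4% ± 1.01 in BMP/FGF. Pcdhb11, which took a like share of the EGF/FGF beta counts to Pcdhb18 and Pcdhb22, was measured at 20.8, 20.3, 18.2 and 18.7 CPM in EGF/FGF, 41.1, 43.3, 33.1 and 32.7 CPM in BMP, and 44.0, 44.8, 44.9 and 40.7 CPM in BMP/FGF. It was 1.92-fold higher in BMP (log2 fold change 0.94, SE 0.07, edgeR adjusted p = 1.99e-09) and, unlike the median of its cluster (-0.20), on the higher side in BMP/FGF against BMP (log2 fold change 0.22, SE 0.07, edgeR adjusted p = 0.0187), a call lost without the line covariate (edgeR adjusted p = 0.0669), in ANS4 alone (0.457), and without BL6 BMP replicate 1 (0.0549), BL6 BMP replicate 2 (0.0536) or BL6 BMP/FGF replicate 1 (0.102). The beta genes called lower in BMP/FGF than in BMP were Pcdhb2, Pcdhb4, Pcdhb5, Pcdhb16 and Pcdhb19, named after their values were seen, with log2 fold changes from -0.62 to -0.40. Like the beta cluster sum, the neuroblast marker sum was highest in BMP, and its part in the beta results was not tested.

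**Figure D4:**
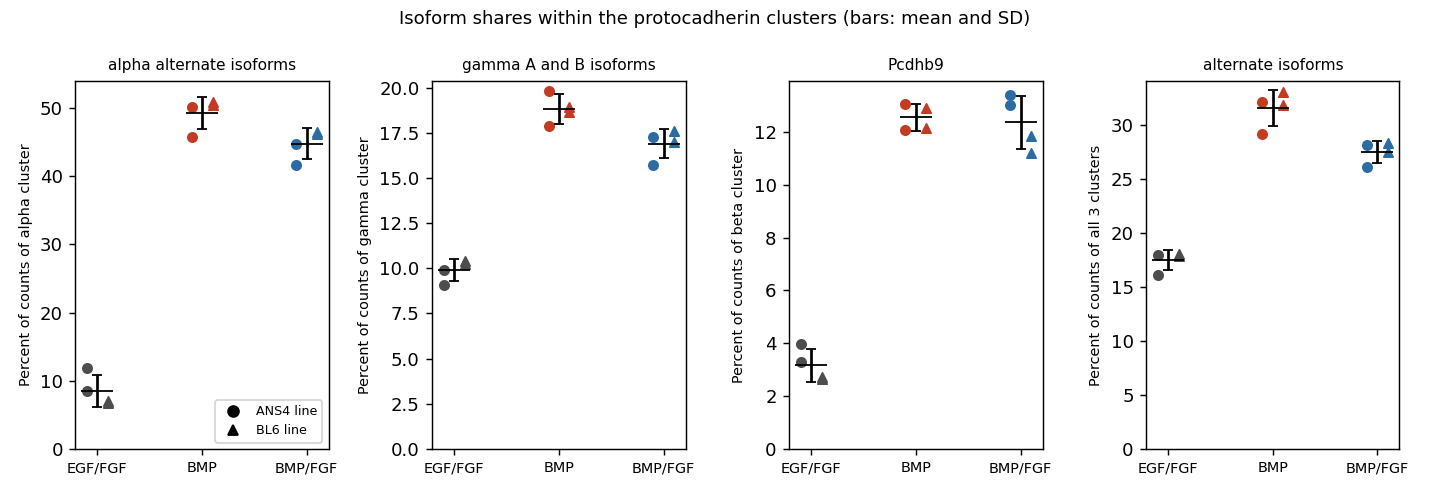
Share of the counts of a protocadherin cluster taken by alternate isoforms, in percent on axes that start at 0, for the 12 libraries, with mean and SD of 4 libraries. Alternate alpha isoforms lie between 6.77% and 11.9% in EGF/FGF and between 41.7% and 50.9% in the other conditions. The last panel gives all alternate and beta isoforms as a share of the 3 clusters.

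The lines were compared next. The difference between lines in the change from EGF/FGF to BMP, tested as an interaction, was called for 7 members (9.02% of all genes), and that from BMP to BMP/FGF for 7 (13.5% of all genes). The interaction for BMP/FGF against EGF/FGF, added after the others were seen, was called for 5 members (4.98% of all genes) and for the alpha cluster sum. Pcdh15 had the largest such difference: its mean went from 46.7 to 40.7 CPM in ANS4 and from 38.1 to 67.5 CPM in BL6, a difference (BL6 minus ANS4) of 1.02 on the log2 scale (SE 0.14, edgeR adjusted p = 2.00e-04). Cdh6 fell further in BL6, from 104 to 41.0 CPM, than in ANS4, from 84.7 to 48.3 CPM, by -0.54 on the log2 scale (SE 0.12, edgeR adjusted p = 0.00847). Cdh19 rose less in BL6, from 41.8 to 56.3 CPM, than in ANS4, from 38.8 to 73.9 CPM, by -0.50 on the log2 scale (SE 0.12, edgeR adjusted p = 0.0160). With FGF2 the lines met at 86.1 and 93.1 CPM. The other 4 calls were beta genes that rose further in BL6 (Pcdhb5, Pcdhb7, Pcdhb9 and Pcdhb10), and for Pcdhb9 the difference was 0.67 on the log2 scale (SE 0.17, edgeR adjusted p = 0.0220). The call for Cdh19 was lost without ANS4 EGF/FGF replicate 2 (edgeR adjusted p = 0.0908) or BL6 EGF/FGF replicate 2 (0.0879), that for Cdh6 without ANS4 BMP replicate 1 (0.0519), and that for Pcdhb9 without ANS4 EGF/FGF replicate 2 (0.136), BL6 EGF/FGF replicate 1 (0.0825) or 2 (0.0811), or ANS4 BMP replicate 1 (0.0697), while that for Pcdh15 held under all 19 alternatives. The BL6 BMP libraries were also those with the highest neuroblast marker sum, and its part in these differences was not tested. For FGF2 added to BMP, the calls were Cdh4, Cdh6, Cdh13, Cdh19, Pcdh15, Pcdhga3 and Pcdhga6. The BMP libraries enter this comparison and that of BMP with EGF/FGF, with opposite signs. Cdh6, Cdh19 and Pcdh15 were called in both, and not in BMP/FGF against EGF/FGF (edgeR adjusted p = 0.528, 0.994 and 0.0884).

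**Figure D5:**
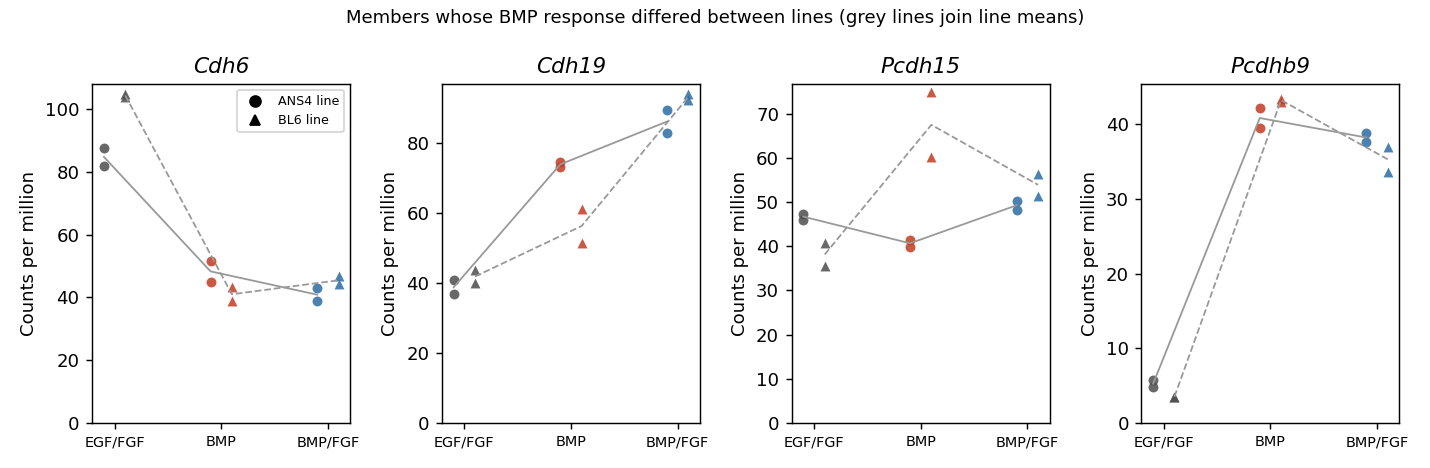
Levels in CPM of 4 members whose change from EGF/FGF to BMP differed between lines, on axes that start at 0. Points are libraries (circles ANS4, triangles BL6) and grey lines join the means of a line. Pcdh15 in BMP lies at 39.9 and 41.4 CPM in ANS4 and at 60.1 and 74.9 CPM in BL6.

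Partner genes of the cadherins were counted from lists, and each count is to be read against the share of all genes called: 40.8% higher and 38.8% lower in BMP against EGF/FGF, 40.9% and 38.0% in BMP/FGF against EGF/FGF, and 20.1% and 21.3% in BMP/FGF against BMP. Among the catenins and junction adaptors, 13 of 21 tested were higher and 5 lower in BMP against EGF/FGF (median log2 fold change 0.29, against 0.02 for all tested genes). Ctnnb1, the beta-catenin that links classical cadherins to actin and to Wnt signalling, was measured at 879.7 ± 26.3 CPM (SD, n = 4) in EGF/FGF and 852 ± 44.5 CPM in BMP, which was not called (log2 fold change -0.05, SE 0.06, edgeR adjusted p = 0.486). Ctnna2, the neuronal alpha-catenin, averaged 0.362 CPM in EGF/FGF and 5.95 CPM in BMP (log2 fold change 3.96, SE 0.29, edgeR adjusted p = 4.86e-10). With FGF2, 2 of the 21 were higher and 9 lower than in BMP.

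Of the 11 tested atypical cadherins (Fat, Dachsous, Celsr and calsyntenin genes and their partners), 9 were higher and none lower in BMP against EGF/FGF (all genes, 40.8% and 38.8%). Their median log2 fold change by edgeR was 0.71, the lowest being Fjx1 at -0.01. In BMP/FGF against BMP, 1 was higher and 6 were lower (all genes, 20.1% and 21.3%). Clstn1, a calsyntenin of vesicle transport, was at 264 ± 13.3 CPM in EGF/FGF and 408 ± 15.3 CPM in BMP (log2 fold change 0.63, SE 0.06, edgeR adjusted p = 1.12e-08). Celsr3, a planar polarity cadherin, climbed to 32.1 CPM from 5.75 CPM (log2 fold change 2.44, SE 0.14, edgeR adjusted p = 1.30e-11) and was lower in BMP/FGF, at 11.9 CPM (log2 fold change -1.39, SE 0.13, edgeR adjusted p = 1.73e-07). Fat4 fell with FGF2 from 6.70 to 2.46 CPM (log2 fold change -1.44, SE 0.18, edgeR adjusted p = 5.47e-06). Of 9 desmosomal cadherins, 4 were in the table and none reached the level for testing.

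The transcription factors of epithelial-mesenchymal transition that repress cadherins had 4 tested genes. Tcf4 was not called in BMP against EGF/FGF (log2 fold change -0.02, SE 0.07, edgeR adjusted p = 0.738), Zeb1 was lower (log2 fold change -0.70, SE 0.06, edgeR adjusted p = 4.02e-09) and Zeb2 higher (log2 fold change 0.70, SE 0.06, edgeR adjusted p = 6.42e-09), with 1 of 4 higher and 2 lower in all (median -0.22). Among 16 tested proteases that shed cadherins or cut their stubs, 6 were higher and 7 lower in BMP against EGF/FGF (median -0.14), close to the shares over all genes. Adam10, the main sheddase of N-cadherin, fell from 486 to 325 CPM (log2 fold change -0.58, SE 0.07, edgeR adjusted p = 2.15e-07). Adam12 fell from 278 to 21.6 CPM (log2 fold change -3.69, SE 0.08, edgeR adjusted p = 1.14e-16). Mmp24, a membrane metalloprotease that cuts N-cadherin, climbed to 15.2 CPM from 1.55 CPM (log2 fold change 3.28, SE 0.14, edgeR adjusted p = 3.97e-13).

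Choice of a clustered protocadherin promoter depends on CTCF, cohesin and DNA methylation, and Smchd1 silences the clusters. Of 16 tested genes of this chromatin machinery, 11 were lower and 3 higher in BMP against EGF/FGF (all genes, 38.8% lower and 40.8% higher). Their median log2 fold change there was -0.31. In BMP/FGF against EGF/FGF, 11 were lower and 2 higher (all genes, 38.0% lower and 40.9% higher). The cohesin subunit Rad21 fell from 715 ± 13.5 CPM to 461 ± 42.2 CPM (log2 fold change -0.63, SE 0.06, edgeR adjusted p = 2.74e-08), and Smc1a, which also belongs to cohesin, from 313 to 152 CPM (log2 fold change -1.04, SE 0.08, edgeR adjusted p = 1.08e-09). Their regulator Pds5a fell from 138 to 79.0 CPM (log2 fold change -0.81, SE 0.07, edgeR adjusted p = 5.36e-09). Of 17 tested genes that act downstream of clustered and delta protocadherins, 7 were higher and 5 lower in BMP against EGF/FGF (median 0.07), also near the shares over all genes. Marcks, an actin-binding kinase substrate, was higher (log2 fold change 0.41, SE 0.06, edgeR adjusted p = 4.38e-06), and Prkca (47.0 to 215 CPM, log2 fold change 2.19, SE 0.07, edgeR adjusted p = 3.98e-15) and Cyfip2, a WAVE complex subunit (17.5 to 68.0 CPM, log2 fold change 1.93, SE 0.13, edgeR adjusted p = 2.81e-10), had the largest rises of the list.

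The 21 members below the level for testing were Cdh1, Cdh3, Cdh7, Cdh9, Cdh15, Cdh16, Cdh17, Cdh23, Cdh26, Pcdh11x, Pcdh12, 5 alpha, 2 beta and 3 gamma genes. Their highest count in any library was 1 (Cdh7 and Cdh9) to 20 (Pcdha2). They were too low for the edgeR test. By the exact permutation test, whose smallest p of 0.0286 is given here without adjustment, Pcdh11x, Pcdha5 and Cdh17 in BMP were above EGF/FGF without overlap, Cdh1 in BMP/FGF above EGF/FGF, and Pcdh11x in BMP/FGF below BMP. No other untested member reached it. These separations rest on few counts, and their share over all genes was not counted. Between Cdh1 in EGF/FGF (2 counts) and in BMP/FGF (2), the nearest libraries differed by scaling alone. So did those of Pcdh11x in BMP (4) and in BMP/FGF (4). For Cdh17 and Pcdha5 the nearest libraries had 3 counts in EGF/FGF and 4 in BMP, and for Pcdh11x 2 and 4.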

How the data were processed

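The RNA of 12 libraries was sequenced on a BGISEQ-500RS. The authors trimmed reads with Trim Galore 0.5.0, quantified them with kallisto 0.44.0 on the mm10 transcriptome, and deposited a table of whole-number estimated counts per gene and a table of log2 values (rlog, DESeq2 1.27.32). Kallisto divides reads among transcripts that share sequence, which touches the clustered protocadherins most. From the deposited counts, edgeR 4.0.16 (R 4.3.3) gave TMM-scaled CPM and quasi-likelihood tests with condition and line as terms, after filterByExpr by condition, and line by condition interactions. P-values were adjusted over all 13312 genes tested, with calls under 0.05. Each cluster was also tested as 1 summed gene. Shares and single values were compared by exact permutation of 4 against 4 libraries (70 divisions), on log2(CPM + 0.1) for levels. DESeq2 1.42.0 on the counts and limma 3.58.1 on the log2 values served as alternatives, beside other scalings, no filter, no line term, a replicate block, single lines and leaving out each library. Steps were tested on simulated data, where edgeR recovered 190 of 198 genes planted at a log2 change of 1 in BMP/FGF against BMP, with 5 false calls. The line interaction test recovered fewer, 134 of 199 genes planted at the same size in BL6 alone, with 6 false calls. Every simulated gene had the same dispersion, and no other condition or line effect was put in.

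Totals of 18069052 to 19451818 counts make 1 count worth about 0.05 CPM. A count of 0 was bounded by 3 counts, which covers counting error only. Named were all non-clustered members tested with at least 1 CPM on average in a condition, the 6 clustered members with the highest mean CPM and the 3 with the largest change among those called, and up to 3 genes of each partner list. Members and lists were chosen with earlier results of these data known. Positions are GRCm38 (GENCODE vM21), and promoters come from RefSeq on GRCm38.p6. Cdh5, Cdh8, Cdh12 and Cdh18 were not analysed here.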

Additional observations from a re-analysis of the deposited data

Results flagged for a closer look

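The change differed between the lines by the interaction test (edgeR, 67 members tested) for 7, 7 and 5 members in the 3 comparisons, against 9.02%, 13.5% and 4.98% of all genes. From EGF/FGF to BMP the difference, BL6 minus ANS4 on the log2 scale, was -0.50 for Cdh19, -0.54 for Cdh6, 1.02 for Pcdh15, 0.89 for Pcdhb10, 0.77 for Pcdhb5, 0.84 for Pcdhb7 and 0.67 for Pcdhb9. From BMP to BMP/FGF it was 0.28 for Cdh13, 0.51 for Cdh19, 0.31 for Cdh4, 0.39 for Cdh6, -0.60 for Pcdh15, 0.55 for Pcdhga3 and 0.40 for Pcdhga6. The values for Cdh13 and Cdh6 lay near the threshold (edgeR adjusted p = 0.0492 and 0.0417), and each was lost under 15 of 19 alternatives. The call for Cdh4 (0.0301) was lost under 6 of 19, and those for Cdh19 (0.0502 without ANS4 BMP/FGF replicate 1), Pcdh15 (0.0578 without BL6 BMP/FGF replicate 2) and Pcdhga6 (0.0591 without ANS4 BMP/FGF replicate 1) under 1 each. From EGF/FGF to BMP/FGF, a comparison of the lines added after the others were seen, the difference was 0.32 for Cdh13, 0.48 for Pcdh10, 1.37 for Pcdha12, 0.73 for Pcdhb10, 0.68 for Pcdhb7 and 0.42 for the alpha cluster sum (edgeR adjusted p = 0.0488, 0.00937, 0.0122, 0.0357, 0.0205 and 0.0308). There the call for Cdh13 was lost under 14 of 19 alternatives, and that for Pcdh10 without BL6 EGF/FGF replicate 1 (0.0635), ANS4 BMP/FGF replicate 1 (0.0546) or BL6 BMP/FGF replicate 1 (0.0527). Because the BMP libraries enter both other comparisons with opposite signs, the paired calls for Cdh6, Cdh19 and Pcdh15 are not independent.

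In 6 of 92 groups of 4 libraries, 1 library stood apart from the others by Dixon's criterion, which chance gives in about 1 group of 20. Pcdh10 was at 88.5 CPM in BL6 BMP replicate 2, below a range of 94.9 to 96.0 CPM for the rest of the BMP libraries. Pcdh19 was at 4.97 CPM in BL6 BMP/FGF replicate 1, above the rest of its condition (4.09 to 4.19 CPM), and Pcdha7 at 5.64 CPM in BL6 BMP/FGF replicate 2, above the rest (4.04 to 4.26 CPM). In ANS4 BMP/FGF replicate 2, Pcdhgc3 was at 1648 CPM and the gamma cluster sum at 1999 CPM, below the others of that condition. In ANS4 BMP/FGF replicate 1 the alpha cluster sum was at 62.4 CPM, below 72.7 to 74.5 CPM in the others.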

How the results depend on the processing

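Over 24 alternatives, 476 of 525 recomputed summary values were kept, meaning that counts stayed within 1.5 times the reported count and that tested values kept their direction and side of the threshold. Of the values of 28 named members 3266 kept both, while 101 lost a call, 56 gained one and 3 reversed. The reversals were all in ANS4 alone, for Pcdh15 in BMP against EGF/FGF (-0.201) and in BMP/FGF against BMP (0.277), and for Pcdhga6 in BMP/FGF against BMP (-0.189). In ANS4 alone, 1 member was lower past 1.5 in BMP/FGF against EGF/FGF. In BL6 alone there were 4, 13 were higher and 1 lower past 1.5 in BMP/FGF against BMP, and the cluster sums were 0.239 (alpha, BMP/FGF against EGF/FGF), -0.174 (beta) and 0.297 (gamma, both BMP/FGF against BMP). With library sizes alone as scaling, 4 members differed between lines in BMP/FGF against BMP. With no filter, 2 were lower past 1.5 there, and without the line covariate 5 were higher. DESeq2 called the gamma sum in BMP/FGF against BMP (0.166, adjusted p = 0.0494). limma on the shrunken rlog values left 11 higher and 1 lower past 1.5 in BMP, and 8 and 1 in BMP/FGF, against EGF/FGF. With each cluster as 1 gene, 10 were higher (3 past 1.5, and 1 lower) in BMP against EGF/FGF, 10 (1 and 1) in BMP/FGF against EGF/FGF, and 5 higher and 5 lower in BMP/FGF against BMP, by construction with fewer genes. The tested units were then 20 non-clustered genes and 3 sums. Of all genes 40.8% and 40.9% were higher in the comparisons with EGF/FGF, and 20.1% were higher and 21.3% lower in BMP/FGF against BMP. The other causes were not tested.

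Leaving out 1 library at a time gave, in BMP/FGF against BMP, beta sums of -0.192 to -0.135, gamma sums of 0.148 to 0.234, 5 to 9 members higher (5 without BL6 BMP replicate 1 or 2), 0 to 1 lower past 1.5 (1 without BL6 BMP/FGF replicate 2) and 2 to 9 with a line difference (2 without ANS4 BMP/FGF replicate 1, and 3 without ANS4 BMP/FGF replicate 2 or BL6 BMP/FGF replicate 2). In BMP/FGF against EGF/FGF, 1 to 3 were lower past 1.5 (1 without BL6 BMP/FGF replicate 2). The labels do not say whether replicate numbers pair the libraries. Over all tested genes, deviations of same-numbered libraries correlated at -0.0711 to 0.0529, which cannot settle it because counting noise also lowers such a correlation. With the replicate block the beta sum in BMP/FGF against BMP was -0.171 (adjusted p = 0.0590), and 3 members differed between lines in BMP/FGF against EGF/FGF, and it changed no other summary call. In that comparison of lines 10 members were called from the 8 libraries compared, and leaving out 1 library gave 0 to 10 (0 without BL6 EGF/FGF replicate 1 or BL6 BMP/FGF replicate 1, 1 without ANS4 EGF/FGF replicate 1 or ANS4 BMP/FGF replicate 1, 2 without ANS4 EGF/FGF replicate 2, ANS4 BMP/FGF replicate 2 or BL6 BMP/FGF replicate 2, and 10 without BL6 BMP replicate 1 or 2). The 21 members below the filter were not tested by edgeR.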
